A study of Mus musculus with 2 samples.

Results

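The 9 genes described here are Clu, Sprr1a, Sprr2a3, Crct1, Il33, Msln, Il1rn, Basp1 and Capg, which carry the working name squamous-like and wound repair genes. They are 9 of the 31053 genes in the matrix and were chosen by their measured pattern in these same data, namely how their counts were spread over cell classes, barcode groups and single cells. Those patterns are therefore given as descriptions, with no test. The study asked how melatonin, with prostaglandin E2, affects regeneration of the intestinal epithelium through the transcriptional regulator YAP. The material was organoids of mouse small intestine, a culture of self-organizing crypt epithelium, and the labels give no strain, sex or age. They list 1 control and 1 melatonin-treated library; for each, cells of 3 independent organoid lines were pooled on culture day 3, so the lines cannot be told apart.

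The deposited files of the 2 libraries were identical, so the series holds 1 matrix of counts of unique molecular identifiers (UMIs), which are tags that count single RNA molecules. Its 21806 barcodes end in the suffix 1 or 2, and no label ties a suffix to a treatment. Barcodes of suffix 1 are called set 1 and those of suffix 2 set 2; no comparison of control with melatonin was made, and the direction of a ratio between the sets is arbitrary. A barcode was kept as a cell if it had 500 genes or more, 1000 UMIs or more and no more than 20% of its UMIs from mitochondrial genes. It left 2300 cells in set 1 (61628537 UMIs, median 29872 per cell) and 1766 in set 2 (51111519 UMIs, median 28759). Of all barcodes, 79.9% exceeded the mitochondrial limit, and 29 barcode sequences occurred with both suffixes, none of them among the kept cells. Cells of 1 pool are not replicates, so no p-value is given, and the 95% intervals (exact Poisson for levels, exact Clopper-Pearson for shares of cells) cover counting error only.

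Several of these genes are known from barrier epithelia. SPRR proteins and Crct1 belong to the epidermal differentiation complex, a gene cluster whose products serve the cornified layer of stratified epithelia. In injured intestine, epithelial cells can pass through a transient regenerative state, often called revival or fetal-like, that expresses clusterin (Clu), annexins, S100 proteins and YAP target genes and can rebuild the stem cell pool. Il33 and Il1rn belong to the interleukin-1 family, which signals tissue damage: IL-33 is an alarmin released by damaged barrier cells, and Il1rn encodes the antagonist that occupies the interleukin-1 receptor without activating it. Msln encodes mesothelin, a membrane-anchored glycoprotein of mesothelium and some epithelia, Basp1 a membrane-associated protein abundant in neurons, and Capg a protein that caps the fast-growing ends of actin filaments.

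Promoter sequence was available for 6 of the 9 genes (9 start windows in RefSeq, GRCm38.p6, each of 250 bases before to 50 after a start) and was searched on both strands for the AP-1 motif TGANTCA, the TEAD motif GGAATG and the TATA motif TATAAA. TEAD factors are the main DNA-binding partners of YAP, which does not bind DNA itself, and AP-1 letters alone do not mark a YAP site. Of 32851 windows of this length, 7.81% held the AP-1 letters, 14.7% the TEAD letters and 13.6% the TATA letters. Sprr1a and the upstream start of Il1rn held AP-1 letters but no TEAD letters, and Sprr2a3, the other SPRR gene listed, held none of the 3 motifs. The 250 bases before these starts are shown because Sprr1a and Il1rn are the listed genes with AP-1 letters and Sprr2a3 is the other SPRR gene listed; capitals mark a motif match.
Sprr1a (chr3:92485882-92486131, minus strand): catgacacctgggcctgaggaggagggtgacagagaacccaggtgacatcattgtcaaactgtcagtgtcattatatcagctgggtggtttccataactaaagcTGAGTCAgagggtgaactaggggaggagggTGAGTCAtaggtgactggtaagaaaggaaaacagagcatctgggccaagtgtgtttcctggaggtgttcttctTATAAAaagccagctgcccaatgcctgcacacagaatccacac
Il1rn (chr2:24336610-24336859, plus strand): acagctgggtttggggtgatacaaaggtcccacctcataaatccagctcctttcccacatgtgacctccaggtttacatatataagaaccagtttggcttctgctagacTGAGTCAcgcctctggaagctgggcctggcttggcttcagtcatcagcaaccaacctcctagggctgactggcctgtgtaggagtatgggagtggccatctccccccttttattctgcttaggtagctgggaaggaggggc
Sprr2a3 (chr3:92285054-92285303, plus strand): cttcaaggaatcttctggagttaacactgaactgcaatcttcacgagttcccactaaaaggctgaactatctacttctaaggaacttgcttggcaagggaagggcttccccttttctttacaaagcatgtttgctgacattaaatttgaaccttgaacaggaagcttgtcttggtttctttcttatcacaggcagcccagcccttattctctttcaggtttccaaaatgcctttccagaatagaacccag
In Sprr1a the AP-1 letters began 146 and 116 bases upstream of the start and the TATA letters 43 bases upstream, and in Il1rn the AP-1 letters began 141 bases upstream. No 2 of these matches overlapped. Capg and Basp1 held none of the 3 motifs, and the TEAD letters occurred at both Il33 starts and at 1 downstream Il1rn start. TATA letters occurred in these same windows too, so 3 genes and 4 of the 9 windows held them. A match is a match of letters, and binding was not measured in these data.

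Of the 9 genes, 8 were found in 165 or fewer of 4066 cells. Levels are a gene's UMIs divided by all UMIs of the set and scaled to counts per 1e6 (CPM). Sprr2a3 was the most widely detected, in 734 of 4066 cells (18.1%), followed by Capg in 165, Sprr1a in 141 and Clu in 133. Il1rn was found in 74 cells, Msln in 52, Crct1 in 41 and Basp1 in 19. Il33 had 4 UMIs in 4 cells, 1 in set 1 and 3 in set 2, at or under the limit of 3 counts that a count of 0 allows, so no ratio is given for it.

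Among the SPRR genes and Crct1, Sprr1a, a precursor of the cornified envelope, counted 296 UMIs in set 1, or 4.80 CPM (4.27 to 5.38), against 605 in set 2, or 11.8 CPM (10.9 to 12.8). Sprr2a3 counted 1484 UMIs in set 1, or 24.1 CPM (22.9 to 25.3), against 2605 in set 2, or 51.0 CPM (49.0 to 53.0). Crct1 counted 162 UMIs in 7 cells of set 1, or 2.63 CPM (2.24 to 3.07), against 3053 in 34 cells of set 2, or 59.7 CPM (57.6 to 61.9). For each of these genes set 2 lay above set 1 with intervals that did not meet. Counts of Sprr2a3 are uncertain, because 61.1% of the 50-base words of its longest annotated coding transcript also occur in Sprr2a1 and 58.8% in Sprr2a2.

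Clu, a secreted chaperone, counted 126 UMIs in set 1, or 2.04 CPM (1.70 to 2.43), against 360 in set 2, or 7.04 CPM (6.33 to 7.81). Il1rn counted 131 UMIs in set 1, or 2.13 CPM (1.78 to 2.52), against 560 in set 2, an interval of 10.1 to 11.9 CPM. Msln counted 568 UMIs in 15 cells of set 1, or 9.22 CPM (8.47 to 10.0), against 936 in 37 cells of set 2, or 18.3 CPM (17.2 to 19.5). These 3 genes were also higher in set 2. Capg counted 238 UMIs in 109 cells of set 1, or 3.86 CPM (3.39 to 4.38), against 304 in 56 cells of set 2, or 5.95 CPM (5.30 to 6.66). Basp1 counted 15 UMIs in set 1, or 0.243 CPM (0.136 to 0.401), against 48 in set 2, or 0.939 CPM (0.692 to 1.25). Capg was found in 4.74% of cells in set 1 (3.91 to 5.69) and 3.17% in set 2 (2.40 to 4.10), intervals that overlap, and with at least 2 UMIs in 0.913% and 1.42%, the reverse order.

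As log2 ratios of CPM plus 1, set 2 over set 1, the values were 4.06 for Crct1, 1.94 for Il1rn, 1.40 for Clu, 1.15 for Sprr1a, 1.05 for Sprr2a3, 0.92 for Msln, 0.64 for Basp1 and 0.52 for Capg. The pseudocount of 1 understates the ratio of low genes. At least 2-fold higher in set 2 were 5 of the 8 genes with 10 or more UMIs, where 0.595% of 15474 genes passed that limit; 0 were 2-fold higher in set 1, where 0.297% of all genes passed it. The intervals lay apart for 8 of 8 genes, all higher in set 2, beside 20.9% of all genes higher in set 2 and 12.2% higher in set 1. The genes were chosen with this contrast known, so these counts carry no weight of their own. The median log2 ratio was 1.10 over the listed genes and 0.03 over all genes. Without the 5% of cells with the most UMIs in each set, the count past 2-fold fell from 5 to 0, the ratio of Crct1 to 0.50, that of Il1rn to 0.12 and that of Sprr1a to 0.02, and Msln (-0.40) and Capg (-0.57) were then lower in set 2. Those deepest cells numbered 204, of which 20 passed the revival-like gate described next.

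**Figure D1:**
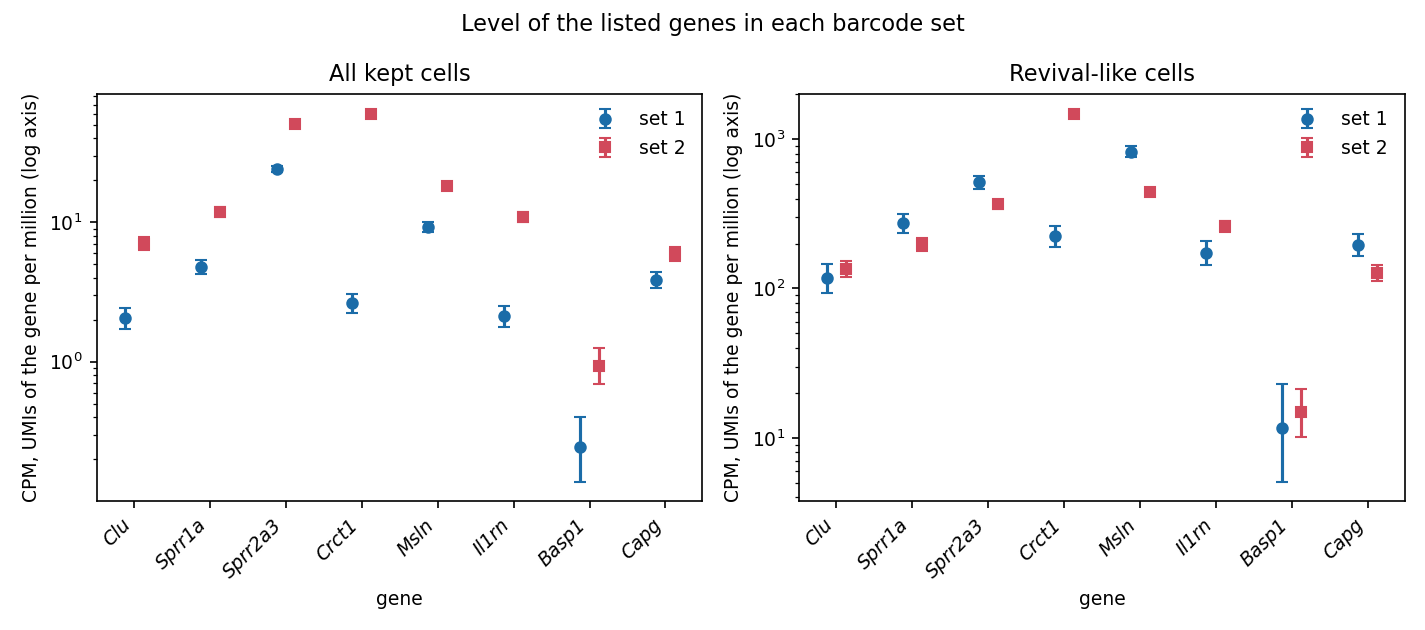
Level of 8 listed genes in CPM on a log axis, in set 1 (circles) and set 2 (squares), over all kept cells (left) and over the revival-like cells (right). Bars are exact Poisson 95% intervals. Over all kept cells each gene is higher in set 2, whereas within the revival-like cells the pooled levels of Sprr1a, Sprr2a3, Msln and Capg are higher in set 1. For Msln this order is reversed in the median revival-like cell. For Sprr1a it is reversed without the 3 highest revival-like cells of the gene in each set.

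Most of these UMIs lay in a small class of cells. Cells were gated by fixed markers of each class, none of them a listed gene: a cell passed when the markers' log2 level, relative to their mean over all cells, averaged at least 0.5 and at least 3 of them had a UMI. The revival-like gate used 8 markers, among them Anxa1, Anxa2, Anxa3, S100a6, S100a11, Cldn4 and Emp1. It held 68 of the 4066 cells and 2.44% of all kept UMIs. These 68 cells held 99.0% of the Crct1 UMIs, 98.6% of Msln, 95.4% of Il1rn, 74.3% of Clu, 73.4% of Capg, 66.1% of Sprr1a, 61.9% of Basp1 and 27.1% of Sprr2a3. For 7 of the 8 genes that is more than 50% of the gene's UMIs, which held for 0.427% of 12895 genes with 50 or more UMIs and for 0.483% of the 9322 genes with as many UMIs as the listed genes (63 to 4089). Without the 3 highest cells of the gene in each set it held for 5, beside 0.171% of the 12895 genes, since the Sprr1a share became 12.4% and the Basp1 share 0%. Of the 68 cells, 17 also passed another gate (8 enterocyte-like, 5 goblet-like, 5 proliferating, 3 Paneth-like and 1 enteroendocrine-like, some of them more than 1), and 42 cells lay just below the gate and 22 between it and double its value. In the 51 cells that passed no other gate, a restriction chosen after seeing the data, the Sprr1a share was 18.9%, against 66.1%.

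In each set, 8 of the 8 genes were at least 2-fold higher in revival-like than in other cells, where 11.1% of genes passed that limit in set 1 and 8.08% in set 2. Msln stood at 823 CPM in the revival-like cells of set 1 against 0.0656 in the other cells, where it rested on 4 UMIs, while set 2 had 444 against 0.347. Clu stood at 118 against 0.738 CPM in set 1 and, in set 2, at 135 against 1.63. Capg stood at 196 against 1.71 and at 128 against 0.816. Each of these 3 genes was thus higher in revival-like cells in both sets. Without the 3 highest revival-like cells of each gene in the set, 6 of the 8 in set 1 and 7 in set 2 stayed past 2-fold. The exceptions were Basp1, with 0 UMIs left in the revival-like cells of each set, and Crct1, with 0 left in those of set 1.

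Detection inside the class was partial. Il1rn, the receptor antagonist, was detected in 45 of 68 revival-like cells (66.2%, 53.7 to 77.2), against 29 of 3998 other cells (0.725%, 0.486 to 1.04) and 2 of 508 enteroendocrine-like cells (0.394%), a class taken to lack it. Median depths of these cells were 40861, 29139.5 and 14279 UMIs. With each cell thinned to 2000 UMIs, the expected shares were 22.5%, 0.0940% and 0.0477%. Clu was found in 34 of the 68 cells (15.4% after thinning, against 0.252% in the others) and Msln in 33 (27.7% against 0.0713%). Within set 2 the revival-like cells ran from 0 to 64 Clu UMIs with a median of 1, and within set 1 from 0 to 36 with a median of 0.

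The difference between the sets changed when it was taken inside the class. Revival-like cells were 27 of 2300 in set 1 (1.17%) and 41 of 1766 in set 2 (2.32%), and they held 1.11% of the UMIs of set 1 and 4.05% of those of set 2, with median depths of 19010 and 49575 UMIs. Within them, 2 genes were higher in set 2 with intervals apart, namely Crct1 (1464 against 223 CPM) and Il1rn (261 against 174 CPM), beside 4.55% of 9904 genes. Another 4 genes were higher in set 1, beside 4.73% of genes: Msln (823 against 444 CPM), Sprr2a3 (512 against 366), Sprr1a (274 against 197) and Capg (196 against 128). The median revival-like cell had 78.2 CPM of Il1rn in set 2 and 80.0 in set 1, so its pooled difference was not seen in the median cell. For Msln the median was 0 CPM in set 1 and above 0 in set 2, the reverse of its pooled order. For Sprr2a3 and Capg the median was higher in set 1, and for Sprr1a it was 0 CPM in both sets. For Clu (118 against 135) and Basp1 (11.7 against 15.0) the intervals overlapped. Past 2-fold were Crct1 alone in set 2 (8.58% of genes) and 0 genes in set 1 (4.2% of genes). Without the highest cell of each set the level of Sprr1a was 85.7 CPM in set 1 and 69.6 in set 2, and that of Crct1 3.11 and 169. Without the 3 highest revival-like cells of the gene in each set, Sprr1a was at 15.5 CPM in set 1 and 18.2 in set 2, the reverse order. Msln (296 against 261), Sprr2a3 (201 against 150) and Capg (135 against 92.7) then stayed higher in set 1. Among the other cells, 5 of the 8 genes were higher in set 2 (19.8% of 15329 genes) and Capg was higher in set 1 (1.71 against 0.816 CPM; 12.2% of genes), the reverse of its direction over all cells.

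Markers of other classes also differed in these cells, in both directions. The summed level of 6 goblet markers was 11061 CPM in revival-like cells from set 2 and 1553 in those from set 1, against 1131 and 563 CPM over all cells of each set. That of 6 Paneth markers was 4028 and 125 CPM, against 459 and 145. Of these markers, 0 of 6 goblet markers were at 0 UMIs in either set and 1 of 6 Paneth markers was at 0 in set 2. In the revival-like class, enteroendocrine markers summed to 407 CPM for set 1 and 91.8 for set 2, and enterocyte markers to 5906 and 4267, while over all cells both were higher in set 2. Proliferating markers summed to 391 CPM in revival-like cells from set 1 and 1070 in those from set 2, the reverse of their order over all cells (1827 and 1255). Their part in the levels of the listed genes, and that of doublets, was not tested.

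**Figure D2:**
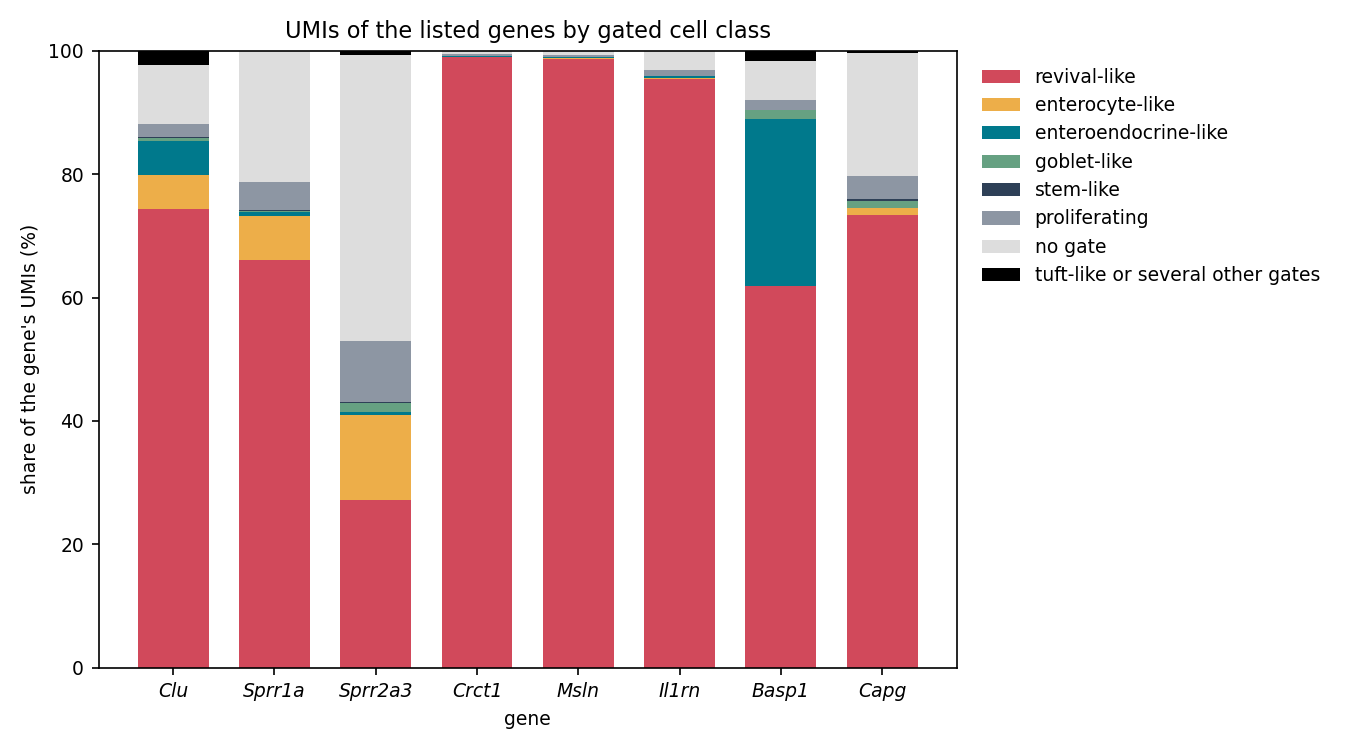
Share of each gene's UMIs (percent, both sets together) in the gated cell classes; revival-like cells count first, whatever other gate they pass. The revival-like part reaches 99.0% for Crct1 and 98.6% for Msln but 27.1% for Sprr2a3, and Basp1 has a second part in enteroendocrine-like cells.

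Sprr2a3 was spread over several classes. Of its 4089 UMIs, 46.3% lay in cells that passed no gate, 13.9% in enterocyte-like and 9.86% in proliferating cells. Its level was 403 CPM (379 to 427) in revival-like cells, 69.3 (63.8 to 75.3) in enterocyte-like cells, 27.0 (25.8 to 28.2) in ungated cells and 22.2 (20.1 to 24.5) in proliferating cells. By set, ungated and proliferating cells stood at 17.8 and 10.8 CPM in set 1 and at 38.1 and 43.9 in set 2, where their intervals overlap. Goblet-like cells stood at 60.4 CPM (45.6 to 78.5), on 56 UMIs in 5 cells of set 1 and 0 UMIs in set 2. Over both sets the level of Sprr2a3 fell to 4.40 (2.11 to 8.09) in stem-like and 2.60 (1.59 to 4.02) in enteroendocrine-like cells, whose intervals overlap each other. Of its 10 highest cells, 6 were revival-like and 3 enterocyte-like, 1 of them in both classes, and 3 had S100a6 and 1 had Msln. Of the 10 highest Sprr1a cells 6 were revival-like, 3 enterocyte-like, 1 of them in both classes, and 2 in no gate, with S100a6 in 5 and Msln in 5. The 10 highest Msln cells were all revival-like, and all had S100a6 and Anxa1. Without the 3 highest cells of the gene in each set, the revival-like share was 15.3% for Sprr2a3, from 27.1%, and 12.4% for Sprr1a, from 66.1%.

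Basp1 was split between classes. Its 63 UMIs lay in 19 cells: 39 UMIs in 3 revival-like cells (8, 12 and 19 UMIs) and 17 UMIs in 10 of the 508 enteroendocrine-like cells (2.21 CPM, 1.29 to 3.54), with 4 UMIs in ungated cells. Clu had 27 UMIs in 21 enteroendocrine-like cells (3.52 CPM, 2.32 to 5.12), close to the 27 UMIs in 22 enterocyte-like cells (3.29 CPM, 2.17 to 4.79), whose interval overlaps it. Capg, the actin-capping protein, had 0 UMIs in the enteroendocrine-like cells, where 3 counts would be 0.391 CPM, and 20 UMIs in proliferating cells (1.10 CPM, 0.673 to 1.70).

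A few cells held much of each gene. The 3 highest cells of both sets together held 93.0% of the Crct1 UMIs, 61.9% of Basp1, 53.3% of Sprr1a, 48.3% of Il1rn, 36.8% of Msln, 29.8% of Clu, 18.5% of Capg and 11.2% of Sprr2a3. In 3 of the 8 genes that was at least 50%, which held for 0.427% of 12895 genes with 50 or more UMIs and for 0.504% of the 9322 genes with as many UMIs as the listed genes (63 to 4089). With each cell scaled to 10000 UMIs it held for Crct1 alone (88.1%), as the Sprr1a share became 35.1% and the Basp1 share 39.8%. The median over those 9322 genes was 1.52%. A single set 2 cell carried 2691 Crct1 UMIs, 83.7% of all; without the highest cell of each set Crct1 stood at 0.179 CPM in set 1 and 7.09 in set 2. The next Crct1 cells held 151, 147, 84, 77 and 21 UMIs, and the remaining 35 of the 41 positive cells held 5 or fewer. The highest Il1rn cell held 193 UMIs, the highest Sprr1a cell 269, the highest Msln cell 232 and the highest Clu cell 64. Concentration and abundance did not go together: Sprr2a3, with the most UMIs, was the most evenly spread.

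**Figure D3:**
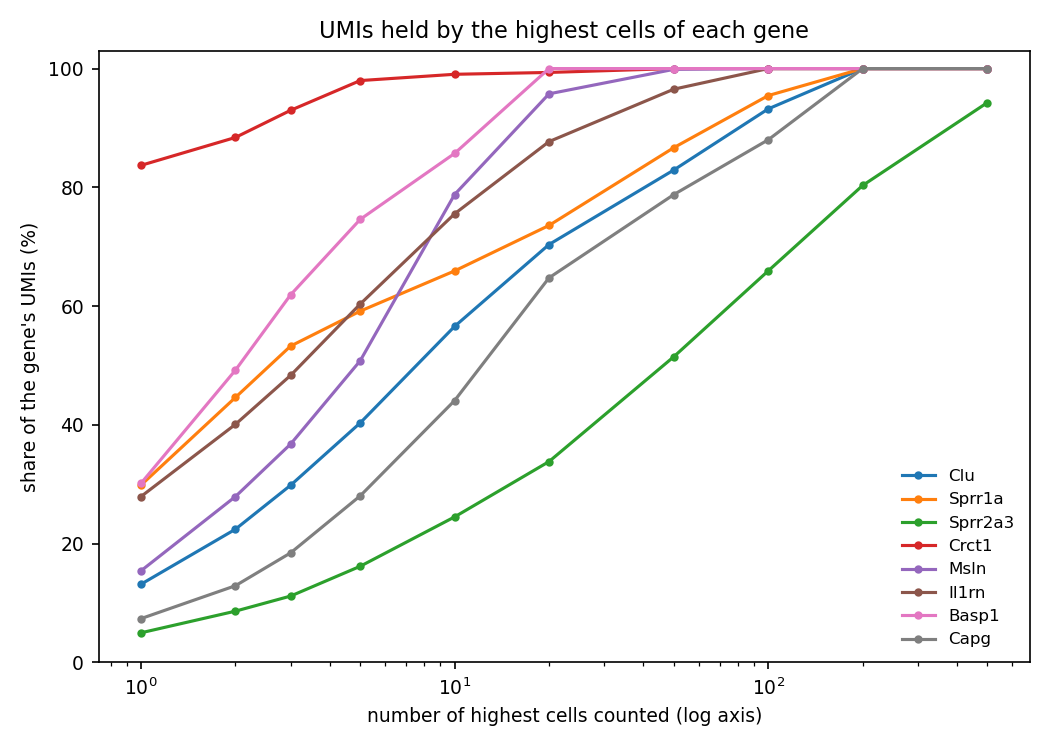
Cumulative share of each gene's UMIs (percent) against the number of its highest cells, on a log axis, both sets together. Crct1 starts at 83.7% in 1 cell, while the 3 highest Sprr2a3 cells hold 11.2%.

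The genes met in the same cells. At least 1 listed gene had a UMI in 1051 of 4066 cells, at least 2 in 188, and at least 4 in 34 cells (11 of set 1 and 23 of set 2), with 7 genes in 4 cells and no cell with 8. All 34 passed the revival-like gate, which uses none of these genes. The listed genes were chosen with their spread over cell classes and single cells known, so this overlap carries no weight of its own. The 34 cells were 0.836% of the kept cells. They held 98.9% of the Crct1 UMIs, 97.7% of Msln, 90.7% of Il1rn, 69.8% of Clu, 68.6% of Capg and 62.4% of Sprr1a, but 12.1% of Sprr2a3. Their depth ran from 19010 to 124906 UMIs with a median of 51802, and 15 of them were among the 5% deepest cells; 19 such cells remained without these, and 5.48 would be expected with every cell thinned to 2000 UMIs.

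Among pairs, Msln and Il1rn shared the largest part of their cells: 30 cells had both, 31.3% of those with either, and all 30 were revival-like. Clu and Il1rn shared 33 cells (19.0% of those with either), Il1rn and Capg 36 (17.7%), and Clu and Msln 25 (15.6%). Sprr2a3 and Capg met in 64 cells, but these were 7.66% of those with either, and 22 of them were revival-like. Across the 4066 cells, which share 1 matrix and differ in depth, Pearson's r of the log levels was 0.62 for Msln and Capg, 0.56 for Msln and Il1rn, 0.56 for Clu and Msln, and 0.13 for Sprr2a3 and Msln.

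**Figure D4:**
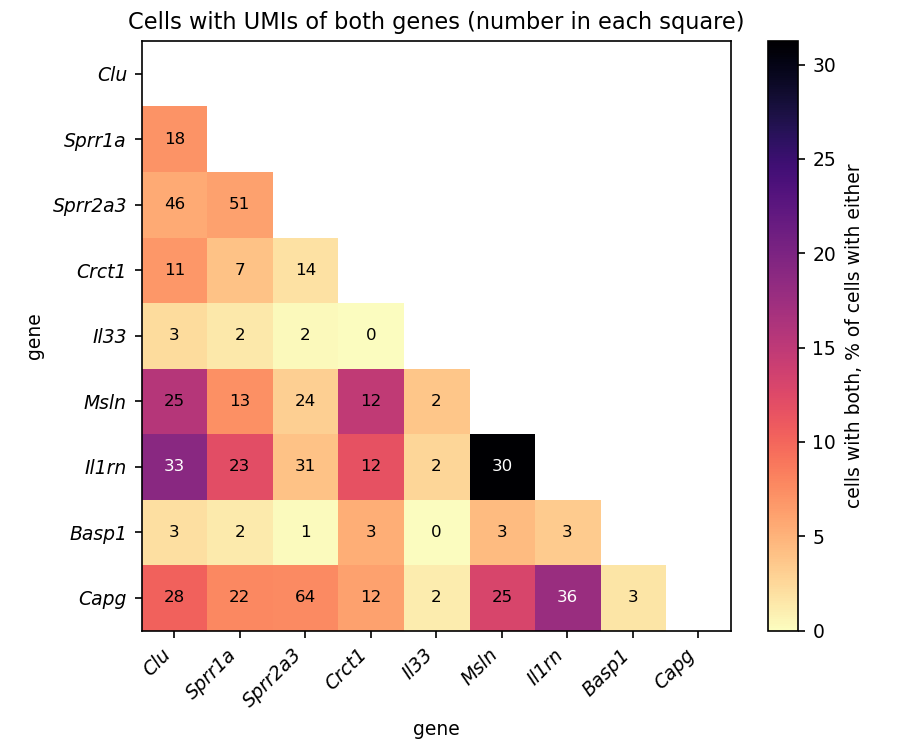
Pairs of listed genes; the number in each square is how many cells had UMIs of both, and the colour is that number as a percent of cells with either gene. The darkest square is Msln with Il1rn (30 cells, 31.3%), and the Sprr2a3 row and column are pale although its pairs reach 64 cells.

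Within the 34 cells the genes did not form a single pattern. Cells with at least 10 Crct1 UMIs, a limit chosen after seeing the values, numbered 6; 1 of them had Sprr2a3, against 23 of the other 28. Basp1 was found in 3 of the 6 and in 0 of the 28. Nts, the gut peptide neurotensin, was found in 4 of the 6 and in 0 of the 28. The single cells given here, and Ly6d, Lor and Nts in them, were picked after their values were seen. The 3 cells with Basp1 had 151, 147 and 77 Crct1 UMIs, 188, 88 and 91 Msln UMIs, 1, 1 and 1 Il1rn UMIs and 0, 0 and 0 Sprr2a3 UMIs. They also had 21, 22 and 268 UMIs of Lor, which encodes the cornified envelope protein loricrin, and 1180, 250 and 73 of Nts. The cell with 2691 Crct1 UMIs differed from them: it had 0 UMIs of Clu, Basp1 and Nts, 30 of Il1rn, 15 of Sprr2a3 and 11 of Msln. Of the 3 cells with Basp1, 1 came from set 1 and the others from set 2.

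In a further set 2 cell the highest Il1rn count (193) stood beside 285 UMIs of Ly6d, a surface protein of stratified and other epithelia, 83 of Msln, 78 of Sprr1a and 40 of Capg, and 5 of Crct1. A set 1 cell with 92 Sprr2a3 UMIs had 1 S100a6 UMI, 9 Msln UMIs and 0 Clu UMIs, and another with 101 had 2 S100a6 UMIs, 0 Msln UMIs and 2 Clu UMIs. High Sprr2a3 thus occurred in cells nearly without S100a6, which was at 1374 UMIs in the set 1 cell with 188 Msln UMIs.

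**Figure D5:**
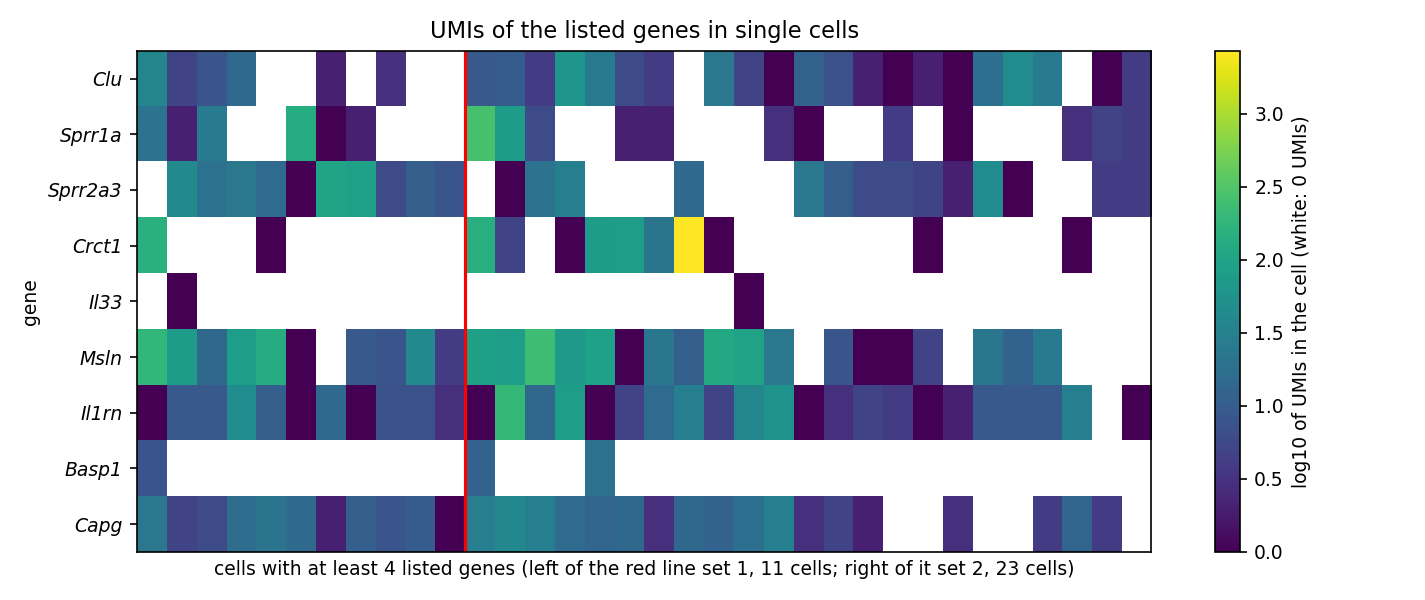
UMIs of the 9 listed genes (rows, log10 colour scale, white for 0 UMIs) in the 34 cells with at least 4 of them (columns), set 1 left and set 2 right of the red line. Clu, Msln, Il1rn and Capg fill most columns, Crct1 and Basp1 few, and the brightest square is the cell with 2691 Crct1 UMIs.

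The genes most alike to each listed gene across all cells were taken by the same Pearson r. For Clu these were Anxa1 (0.60), Msln (0.56) and Gcnt1 (0.50), the latter seen in 12 cells. For Msln they were Anxa10 (0.65), Anxa8 (0.65) and Ly6d (0.64), for Capg Anxa10 (0.66), Msln (0.62) and Psca (0.59), and for Il1rn Ly6d (0.60), Anxa3 (0.59) and Anxa1 (0.57). An annexin, a membrane-binding protein, thus stood first for 3 of these 4 genes and second for Il1rn. Crct1 was most like Serpinb9b (0.54), S100a7a (0.51) and Wincr1 (0.51), Basp1 like Serpinb9b (0.41), Gcnt1 (0.39) and S100a7a (0.39), and Sprr1a like Uts2 (0.37), Wincr1 (0.34) and S100a7a (0.34), all of them seen in 10 to 16 cells. Sprr2a3 was most like Anxa2 (0.32), AA467197 (0.32) and Cybrd1 (0.30), seen in 492 to 2748 cells. In the 3 cells with the most Crct1, the genes with the highest ratio to all other cells were Crct1, Nts, Scgb1b20, Krtap3-2, Cxcl5, Serpinb9b, S100a7a, Sprr1a, Ptcra and Rasgrf1. For all 10 of these, 1 of the 3 cells held at least 80.6% of the UMIs in them.

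The name squamous-like was checked against markers of stratified epithelium. Krt5, Trp63 and Krt6a, which define basal and wound-edge cells of such epithelia, had 0 UMIs in 4066 cells, Krt14 had 4, Krt13 22, Krt4 20 and the envelope protein gene Ivl 3. No UMI of Krt5, Krt14, Krt13 or Trp63 fell in the 34 cells with at least 4 listed genes, while the 3 Ivl UMIs and 1 of the Krt4 UMIs lay in revival-like cells, and no cell passed the squamous gate. The data thus do not bear out squamous cells by these keratins, and the genes are named here one by one. No cell passed the mesothelial gate either: Wt1 had 5 UMIs and Muc16 1, none in a revival-like cell, and 2 of 319 Upk3b UMIs lay in such cells. Upk1b had 17 of its 146 UMIs and Lrrn4 9 of its 72 in revival-like cells, which hold 2.44% of all UMIs. No cell passed the immune, mesenchymal or endothelial gates, and the summed level of 7 immune markers in revival-like cells was 0 CPM in set 1 and 0.966 CPM in set 2.

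Related genes were followed in lists. Of 14 SPRR relatives 13 were in the files and 3 had 10 or more UMIs: Sprr2a1 (93 UMIs), Sprr2a2 (38) and Sprr2b (33), the first 2 of which share sequence with Sprr2a3. Past 2-fold between the sets were 0 of the 3, near the 0.595% and 0.297% of all genes, and past 2-fold in revival-like cells 3 of 3 in each set (11.1% and 8.08% of all genes). Sprr1b had 1 UMI and Sprr3 0. Of 40 cornified envelope and squamous genes 11 were at 0 UMIs and 23 had the minimum; 3 of these were past 2-fold in set 2 (0.595% of all genes) and 0 in set 1 (0.297%). These were Lor (1.53 and 7.67 CPM), Cnfn, an envelope protein gene with 244 UMIs in 3 cells and 242 of them in 1 cell, and Ly6d (5.45 and 13.7 CPM, 1036 UMIs in 27 cells). A single set 2 cell held 268 of the 392 Lor UMIs of that set, and another 285 of the 700 Ly6d UMIs. Without the highest set 2 cell of the gene none of the 3 was past 2-fold, with log2 ratios of 0.44 for Lor, 0.06 for Cnfn and 0.50 for Ly6d; without the highest cell in both sets Ly6d alone was, at 1.08. Both restrictions were chosen after seeing the data. In revival-like against other cells 8 of 17 list genes were past 2-fold in set 1 (11.1% of all genes) and 12 of 20 in set 2 (8.08%). Among them, Sfn, which encodes the epithelial protein stratifin, stood at 325 against 83.9 CPM and 293 against 91.1, Krt7, a simple-epithelium keratin, at 331 against 46.4 and 316 against 53.1, and S100a14 at 267 against 11.4 and 320 against 11.9.

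Of 25 repair-state genes 24 had the minimum and 8 were past 2-fold in set 2, among them Anxa1, Anxa3, S100a6, S100a11, Areg, Plaur and F3, and 0 in set 1 (0.595% and 0.297% of all genes). Of those named, S100a6 (log2 ratio 0.75) and Anxa3 (0.99) were not past it without the highest set 2 cell of the gene, while all 7 stayed past it without the highest cell in both sets. Areg, an epidermal growth factor receptor ligand, stood at 141 CPM in set 1 and 374 in set 2, and F3, tissue factor, at 6.72 and 24.1. In revival-like cells 19 of 22 of these genes were past 2-fold in set 1 (11.1% of all genes) and 22 of 23 in set 2 (8.08%), but 8 of the list are markers of the gate itself. The median log2 ratio between the sets was 0.69 for this list, 0.20 for the cornified envelope list and 0.11 for the SPRR relatives, beside 0.03 over all genes.

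Of 19 interleukin-1 family genes 16 were in the files, 5 were at 0 UMIs and 9 had the minimum. Past 2-fold between the sets were 0 of the 9, which is near the 0.595% and 0.297% of all genes. In revival-like cells 1 of 8 was past 2-fold in set 1, a share close to the 11.1% of all genes, and 2 of 9 in set 2, where it was 8.08%. Il18 passed in both sets (13.1 against 5.38 CPM and 32.9 against 6.50), and Il1a, an interleukin-1 receptor ligand that Il1rn opposes, in set 2 (46 UMIs, all in revival-like cells). Only 5 cells of both sets together had Il1a, and the 3 highest held 89.8% of its UMIs. Il1b, the other ligand that Il1rn opposes, had 0 UMIs. Of the 12 actin-capping and MARCKS relatives with the minimum, Gsn, the actin-severing protein gelsolin, was the 1 past 2-fold between the sets with 529 UMIs in set 1 and 1021 in set 2, where 0.595% of all genes were past 2-fold higher in set 2 and 0.297% in set 1. In revival-like cells it stood at 197 against 6.47 CPM and 236 against 10.9, and Scin, its relative, at 42.3 against 8.58 and 30.9 against 12.4. Of this list 4 of 12 were past 2-fold in revival-like cells of set 1 (11.1% of all genes) and 2 of 12 in set 2 (8.08%). Of the subunits of the heterodimeric capper, Capzb was past 2-fold in set 1 (261 against 115 CPM) and not in set 2 (221 against 117), while Capza1 (93.4 against 62.7) and Capza2 (175 against 116) fell short in set 1. Among 6 mesothelial genes 3 had the minimum, none past 2-fold between the sets. In revival-like cells Upk1b was past 2-fold in set 1 on 3 UMIs (1 of 3 genes, beside 11.1% of all genes), and Upk1b and Lrrn4 in set 2 on 14 and 9 UMIs (2 of 3, beside 8.08%).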

How the data were processed

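Droplet-based 3' single-cell libraries of organoid cells were measured. The deposited matrix holds whole-number UMI counts per gene and barcode, with no normalization by the authors. Per the submitters' processing notes Cell Ranger 3.1.0, STAR 2.7.3a and bcl2fastq 2.20.0 were used; the genome build and annotation are not given in the sources used here. Levels, gates, exact intervals and thinning (hypergeometric expectation) were computed in Python 3.11.15 with numpy 2.4.6, scipy 1.17.1 and pandas 2.3.3, and tested on simulated data. Genes needed 10 UMIs for a ratio and 50 for the concentration background; the call was 2-fold on CPM plus 1. The genes named are the 9 listed; the 3 most correlated genes of each, for genes in at least 10 cells; the 10 top genes of the 3 highest Crct1 cells; and members of the gene lists. The listed genes and the gene lists were chosen with earlier results of these data known, and the gate threshold and scoring were chosen after seeing the data. No doublet caller was run; cells in more than 1 gate and the 5% deepest cells were left out as alternatives. Transcripts for the 50-base words came from GENCODE vM21. Some list members and markers are counted but not reported here by name.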

Additional observations from a re-analysis of the deposited data

Results flagged for a closer look

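Counts of 7 of the listed genes in the barcodes outside the cell filter, of which only those that failed on mitochondrial share alone entered an alternative, the one with no mitochondrial limit, exceeded the limit that a count of 0 allows. Sprr2a3 had 1580 UMIs there, 27.9% of all its UMIs. Its level there was 23.0 CPM in set 1 and 14.7 in set 2, the reverse of the order in kept cells. With mitochondrial UMIs left out of the total it was 54.8 and 34.2 CPM. Clu had 118 UMIs there (19.5%), Il1rn 91 (11.6%), Capg 89 (14.1%), Sprr1a 83 (8.43%), Msln 82 (5.17%) and Crct1 33 (1.02%). The highest count in a barcode was 126 UMIs for Sprr2a3, in set 2, and 21 for Clu, in set 1.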

How the results depend on the processing

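The count of listed genes at least 2-fold higher in set 2 (5) became 0 without the 5% deepest cells, 1 with the mean over cells in place of the pooled level and 1 with a pseudocount of 10. The log2 ratio kept its sign under all 11 alternatives for 6 of the 8 genes; Msln was -0.40 and Capg -0.57 without the deepest cells, and Capg was -0.01 as a mean over cells. The number of cells with at least 4 listed genes (34) was 19 without the deepest cells and 5.48 after thinning to 2000 UMIs. The number of genes with at least 50% of their UMIs in their highest cells (3) was 6 for the 10 highest cells and 1 with each cell scaled to 10000 UMIs. The number with over 50% of UMIs in revival-like cells (7, beside 0.427% of all genes) was 5 without the 3 highest cells of each gene per set (0.171%), 6 at a gate threshold of 1 (0.396%) and 6 with each cell in its highest class (0.403%), where the Sprr1a share was 49.8% and 49.7%. It was 5 in cells of no other gate (0.341%) and 6 without the deepest cells (0.165%), both added after seeing the data. The gate held 110 cells at a threshold of 0.25, 46 at 1 and 150 with no mitochondrial limit. No paired analysis was possible because no label ties a barcode suffix to a library or a replicate number. Il33 had 4 UMIs, too few for a ratio.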
